A study of Mus musculus with 8 samples.

Results

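The collagen genes outside type IV were examined in whole stomachs of mouse embryos at E13.5. Members were chosen by a rule on gene names, and the rule and the classes were set with earlier results of these data known. They were the loci called Col, a number, the letter a and a number, without Col4a1 to Col4a6, Col2a1 and Col9a1. This gave 33 of 23165 loci with a gene name, while 8 collagen loci were set aside by the same rule. Sorted by the structures their proteins form, they were 10 fibrillar chains, 7 fibril-associated collagens (FACITs), 6 type VI chains of beaded filaments, 3 network-forming chains, 4 transmembrane collagens, 2 multiplexins and Col28a1. A further 2 loci that join a collagen with another gene name, Col7a1,Mir711 and Arfgap1,Col20a1, were kept apart because their fragments cannot be given to either name.

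Collagens are the main structural proteins of the extracellular matrix. Their chains wind around each other into a stiff rope-like helix, in which glycine recurs at a fixed spacing because its small side chain alone fits inside. Fibrillar collagens assemble into the fibres that bear tension, FACITs decorate the surface of those fibres, and type VI collagen forms fine filaments close to cells. Type VIII chains build open networks, transmembrane collagens are anchored in the cell surface, and multiplexins lie at basement membranes. In the gut wall, fibroblast-like mesenchyme and smooth muscle are the chief makers of interstitial collagen.

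The 4 wild type libraries were compared with 4 libraries of the genotype Nkx3.2Cre;R26-YAP5SA, called YAP5SA here. The Nkx3.2Cre allele expresses Cre recombinase where the Nkx3-2 gene is active, which includes the stomach mesenchyme, and R26-YAP5SA is a conditional transgene at the Rosa26 locus. It encodes a form of the coactivator YAP whose serine sites for the Hippo kinases are changed to alanine. All embryos were at E13.5. No group carried Cre alone or the transgene alone, so effects of the Cre allele and of YAP5SA cannot be told apart. The labels do not say whether a library came from 1 embryo or a pool, and a p-value here measures only how these libraries spread, which may be technical.

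Loci with a gene name held 6204932 to 6783555 raw fragments in wild type and 7152526 to 8353242 in YAP5SA, so that the YAP5SA libraries together were 1.17 times as deep. Libraries of a genotype correlated at 0.972 to 0.987 in wild type and 0.975 to 0.988 in YAP5SA on the log2 scale. The lowest values involved replicate 1 of each genotype. Markers of several cell types moved with the genotype. For comparison, 9.06% of all loci tested rose and 9.85% fell at an adjusted p under 0.05 (edgeR). Of the smooth muscle markers 5 of 7 fell. Their summed level was 1173 to 1237 fragments scaled to library size (CPM) in wild type and 547 to 727 in YAP5SA. Of the epithelial loci (2 of them Sox21) 9 of 10 fell. Of 6 glial loci 5 fell (Sox21 and Erbb3 have 2 loci each), and all 4 macrophage markers tested rose, from 186 to 262 CPM in sum to 359 to 514.5. Among mesenchyme markers 1 of 6 rose and 1 fell, with sums of 810.5 to 916 and 732 to 847 CPM. Of 5 cartilage markers 1 rose (sums 73.5 to 113 and 79.6 to 109 CPM), while the cartilage genes Matn1 and Comp held at most 4 fragments per genotype. The part of these cell types in the collagen values below was not tested.

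The glycine rule can be read from the coding sequences themselves. To show it, the stretches below give the first 90 bases of the longest uninterrupted run of glycine-led triplets for chains on which the results turn. They come from the GENCODE M21 coding sequences on mm10 and are written 5′ to 3′, and the capitals mark the glycine codons (GGN), each followed by 2 free codons.
Col1a1: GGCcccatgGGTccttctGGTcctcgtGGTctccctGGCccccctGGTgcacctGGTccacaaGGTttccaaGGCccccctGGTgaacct
Col24a1: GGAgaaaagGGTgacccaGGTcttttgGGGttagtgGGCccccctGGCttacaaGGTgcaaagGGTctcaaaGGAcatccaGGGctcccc
Col27a1: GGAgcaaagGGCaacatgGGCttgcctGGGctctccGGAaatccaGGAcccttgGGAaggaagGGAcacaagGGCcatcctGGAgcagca
Col6a3: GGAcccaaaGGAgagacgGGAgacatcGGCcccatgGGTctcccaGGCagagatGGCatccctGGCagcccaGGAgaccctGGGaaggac
Col8a1: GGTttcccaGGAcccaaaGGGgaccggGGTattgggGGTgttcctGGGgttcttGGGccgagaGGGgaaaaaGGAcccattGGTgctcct
The runs differ in length far more than in pattern. The longest run of Col1a1 held 338 triplets, and those of the other 7 fibrillar chains of types I, III, V and XI held 337 to 344. Col24a1 and Col27a1, which belong to the fibrillar family but have shorter, interrupted helices, reached 216 and 217 triplets. The type VI chains reached 87 (Col6a1 and Col6a2) or 37 to 45 (the others), the network chains Col8a1 and Col8a2 reached 60 and 59, and Col28a1 reached 28.

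After a filter on low counts, 32 of the 33 collagens were tested. Col10a1, the type X collagen of growth cartilage, did not pass, with 3 fragments over all 8 libraries. At an adjusted p under 0.05 (edgeR), 14 of the 32 differed between the genotypes, or 43.8%, against 18.9% of all 14574 loci tested. The split was uneven. Only 3 collagens rose in YAP5SA (9.06% of all loci rose) and 11 fell (9.85% of all loci fell), with a median log2 fold change of −0.21 for the collagens and −0.01 for all loci. Without YAP5SA replicate 1, 4 collagens rose and 9 fell, and without YAP5SA replicate 2, 3 rose and 7 fell. Calls over all loci moved in these fits as well. Without YAP5SA replicate 2, fewer of all loci were called in either direction than in the full fit. The drop to 7 collagens is therefore not by itself a dependence of the collagens on that library. Without YAP5SA replicate 1, more of all loci fell and fewer rose. Library values did not overlap between the genotypes for 13 of the 32, or 40.6%, against 23.3% of all loci tested. In bulk tissue, a change in the number of cells of a type and a change in RNA per cell cannot be told apart. This holds for every rise and every fall below.

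By class, the direction differed. Both tested network-forming chains rose (median 0.86). Of the 6 type VI chains 5 fell and none rose (median −0.69), and of the 4 transmembrane collagens 2 fell (median −0.52). Among the 10 fibrillar chains 1 rose and 2 fell (median −0.09), among the 7 FACITs 1 fell (median 0.08), and neither multiplexin passed the test (median −0.13). Col28a1 fell.

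**Figure D1:**
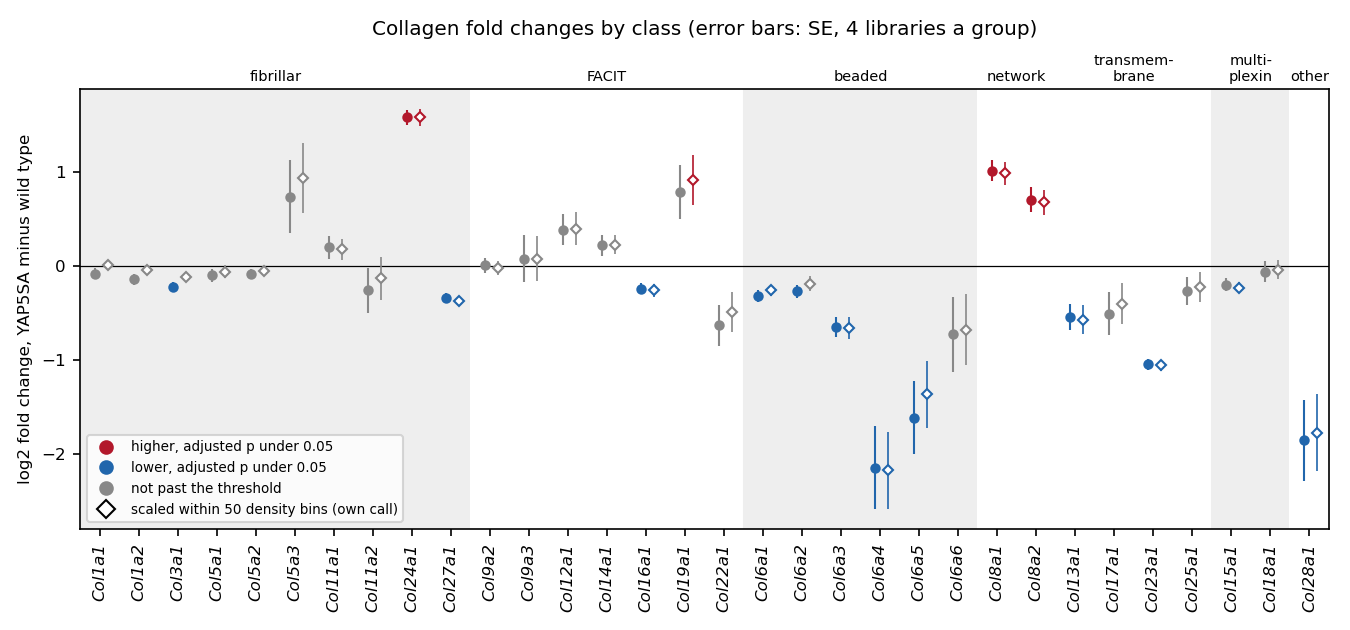
Log2 fold change (YAP5SA minus wild type, vertical axis) of the 32 tested collagens by class, with SE over 4 libraries a group; filled circles are the main edgeR values and open diamonds the values after scaling within 50 bins of coverage density, each coloured by its own call. Col24a1, Col8a1 and Col8a2 lie above 0 in both, Col6a4, Col28a1, Col6a5 and Col23a1 lie at or below −1.05, and Col3a1 and Col6a2 lose their call in the diamonds.

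The levels of the collagens spanned more than 2 orders of magnitude. On the FPKM scale, which is per length, Col3a1 (114.9 ± 2.36), Col1a2 (108.4 ± 4.63) and Col1a1 (108.0 ± 4.99) led in wild type (SD, n = 4). These are the chains of the tissue's main fibres. They gave 29.2% to 31.5% of the summed FPKM of the 33 members in wild type and 27.9% to 30.0% in YAP5SA. At dense loci fragments rose less than in proportion to depth, as described further on. FPKM may therefore understate the levels and the share of these chains, which was not tested. Type VI chains Col6a2 and Col6a1, at 88.0 ± 8.58 and 76.7 ± 4.91 FPKM, came next, before Col5a1, Col5a2 and Col18a1. Col6a5 was lowest of the tested members, at 0.722 ± 0.294 FPKM.

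Summed by class, fibrillar FPKM was 528.9 ± 18.5 in wild type and 498.6 ± 17.6 in YAP5SA (SD, n = 4). Type VI FPKM was 224.8 ± 19.1 and 169.0 ± 11.6, with the lowest wild type sum at 201.7 and the highest YAP5SA sum at 183.7. Network FPKM was 32.9 ± 4.92 and 58.7 ± 5.86, also without overlap, and transmembrane FPKM was 62.5 ± 2.02 and 37.4 ± 3.53. The sums of FACITs (168.7 ± 19.8 and 184.7 ± 11.1) and of multiplexins (81.5 ± 10.3 and 77.3 ± 6.51) overlapped. Over all 33 members the sum was 1012 to 1178 FPKM in wild type and 1001 to 1076 in YAP5SA. These sums are descriptions without a test.

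**Figure D2:**
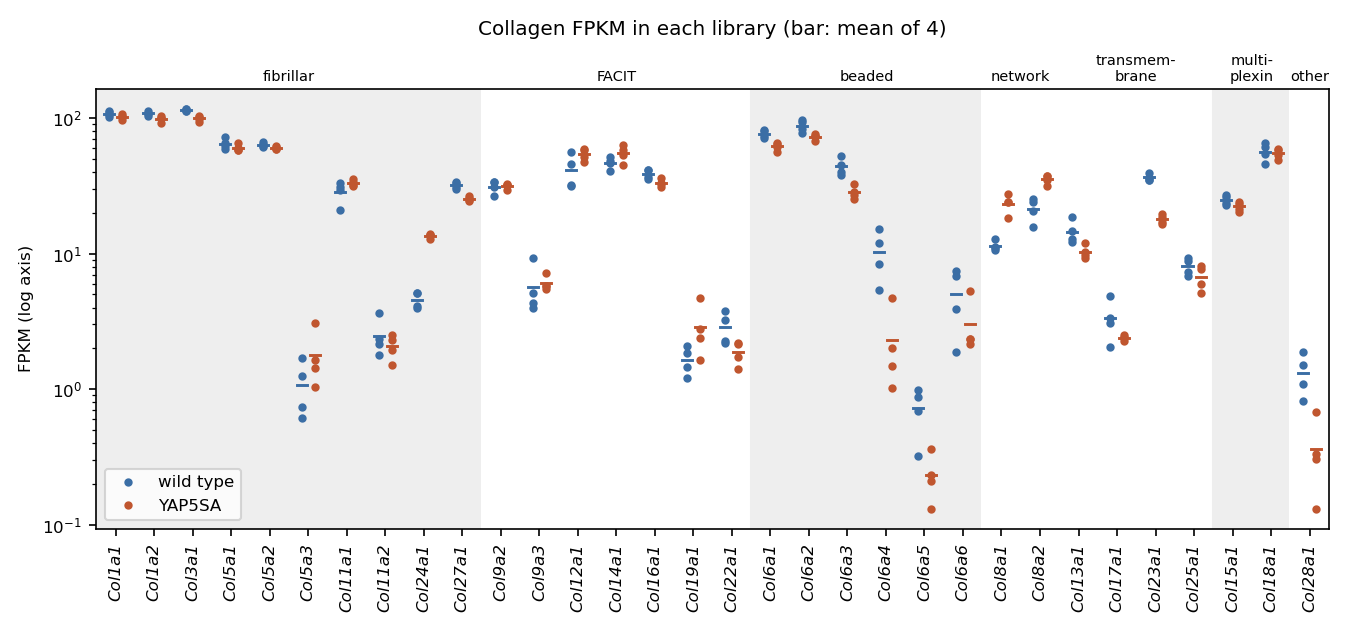
FPKM of the 32 tested collagens in each of the 8 libraries (log axis), grouped by class; points are libraries and bars the mean of 4. Col24a1 lies between 3.95 and 5.10 FPKM in wild type and between 12.8 and 14.02 in YAP5SA, and the 2 colours are also apart for Col8a1, Col8a2, Col23a1, Col27a1 and Col6a3.

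As counted, type I and type III collagen, the bulk of the fibres, differed little. Their genes are among the densest loci, where a difference could be compressed, as described further on. Col1a1, which encodes the chain that contributes most to type I collagen (chromosome 11, 94936223 to 94953044, mm10), was at 110.5, 105.5, 113.5 and 102.4 FPKM in wild type and 96.4, 103.1, 107.7 and 102.0 in YAP5SA. The genotypes overlapped, and the log2 fold change was −0.08 ± 0.06 (SE, n = 4, adjusted p = 0.34). Its partner Col1a2 (chromosome 6, 4505202 to 4541543) was at 110.0, 107.1, 113.8 and 102.8 FPKM in wild type and 91.9, 100.6, 104.3 and 100.5 in YAP5SA. Only the lowest wild type library lay within the YAP5SA range, and the change of −0.14 ± 0.06 did not pass (adjusted p = 0.12).

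Col3a1, the single chain of type III collagen, which is rich in distensible tissue (chromosome 1, 45311538 to 45349706), stood at 117.4, 112.5, 116.3 and 113.3 FPKM in wild type. In YAP5SA it stood at 93.6, 102.0, 104.1 and 98.0 FPKM. Every YAP5SA library was lower than every wild type library, and Col3a1 fell by 0.22 ± 0.05 on the log2 scale (SE, n = 4, adjusted p = 0.013), a 1.17-fold difference. Its raw fragments summed to 16455 in wild type and 16457 in YAP5SA, a ratio of 1.00 between sets of libraries that differ 1.17-fold in depth. Scaled within 50 bins of coverage density, as described further on, the change was −0.12 ± 0.04 and no longer passed (adjusted p = 0.07).

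Type V collagen, which nucleates fibrils and limits their width, also differed little as counted. The same limit of dense loci applies to Col5a1 and Col5a2. Col5a1 (chromosome 2, 27883374 to 28039511) was at 62.7, 65.4, 72.1 and 59.4 FPKM in wild type and 58.6, 58.5, 65.1 and 60.6 in YAP5SA, a change of −0.10 ± 0.07 (adjusted p = 0.38). Col5a2 (chromosome 1, 45374331 to 45503282) was at 62.3, 64.9, 67.0 and 60.8 FPKM in wild type and 59.4, 61.2, 62.6 and 59.5 in YAP5SA, a change of −0.08 ± 0.05 (adjusted p = 0.29). Both overlapped between the genotypes. Col5a2 lies 24.6 kb from Col3a1 on chromosome 1, and of these neighbours Col3a1 alone passed the test; the difference between their changes was not tested. The third type V chain gene, Col5a3, was at only 1.07 ± 0.50 FPKM in wild type and 1.80 ± 0.90 in YAP5SA (SD, n = 4; log2 difference 0.74 ± 0.39, adjusted p = 0.23). Over left-out libraries the Col5a3 value ran from 0.35 without YAP5SA replicate 1 to 1.06 without wild type replicate 1.

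The clearest rise among all members was that of Col24a1 (chromosome 3, 145292472 to 145552005), a minor fibrillar collagen known from developing bone and cornea. It was at 3.95, 5.10, 4.08 and 5.09 FPKM in wild type and 12.8, 13.7, 13.7 and 14.02 in YAP5SA. Both groups were tight and far apart, and Col24a1 rose 3.01-fold (log2 fold change 1.59 ± 0.08, SE, n = 4, adjusted p = 4.8e-06). Its raw fragments summed to 721 in wild type and 2528 in YAP5SA. The change was 1.54 to 1.67 when single libraries were left out.

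Its nearest relative by the length of the glycine run went the other way. Col27a1 (chromosome 4, 63214010 to 63334990), a fibrillar collagen best known from cartilage, was at 33.3, 30.2, 31.2 and 34.1 FPKM in wild type and 26.7, 25.9, 25 and 24.4 in YAP5SA. All YAP5SA libraries were below all wild type libraries, and Col27a1 fell 1.27-fold (−0.34 ± 0.05, adjusted p = 0.0013). In wild type Col27a1 was the more abundant of these genes per length, at 32.2 ± 1.78 FPKM against 4.55 ± 0.63 for Col24a1 (SD, n = 4). In YAP5SA the levels were 25.5 ± 1.00 and 13.54 ± 0.51 FPKM.

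Type XI chains, which nucleate thin fibrils in cartilage and other tissues, did not pass the test. Col11a1 was at 28.7 ± 5.36 FPKM in wild type, where its lowest library held 21.0, and at 33.3 ± 1.82 in YAP5SA (SD, n = 4; log2 difference 0.20 ± 0.12, adjusted p = 0.28; 0.09 without wild type replicate 1). Col11a2 was much lower, at 2.48 ± 0.82 and 2.07 ± 0.45 FPKM (−0.26 ± 0.24, adjusted p = 0.52). The Col11a2 value rested on wild type replicate 1 and on the scaling: it was −0.01 without that library (adjusted p = 0.99) and −0.08 with TMM in 5 density bins.

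The 5 chains that fell of the 6 of type VI were the largest called share of any class with more than 2 tested members. The classical trimer is made of the chains of Col6a1, Col6a2 and Col6a3. Col6a3 (chromosome 1, 90766748 to 90844004) was at 39.8, 45.3, 52.9 and 38.3 FPKM in wild type and 32.7, 25.4, 28.4 and 27.3 in YAP5SA. No YAP5SA library reached the lowest wild type library, and Col6a3 fell 1.57-fold (−0.65 ± 0.11, SE, n = 4, adjusted p = 0.0029). The chain of this gene carries a long tail of globular domains that is cut off after secretion.

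The partner chains fell by smaller amounts. Col6a1 (chromosome 10, 76708679 to 76726211) was at 81.3, 74.4, 80.2 and 70.9 FPKM in wild type and 64.5, 65.2, 61.5 and 56.4 in YAP5SA, without overlap, and fell by 0.32 ± 0.06 (adjusted p = 0.0052). Col6a2 (chromosome 10, 76593871 to 76623498), which lies 85.2 kb from Col6a1, was at 96.6, 83.6, 93.5 and 78.2 FPKM in wild type and 76.2, 74.3, 73.7 and 68.3 in YAP5SA. It fell by 0.27 ± 0.07 (adjusted p = 0.025), also without overlap between the genotypes. This is the least firm of the type VI calls. With 50 density bins the change of Col6a2 was −0.19 ± 0.08 (adjusted p = 0.11), while Col6a1 kept its call (−0.26 ± 0.06, adjusted p = 0.017). Col6a2 also missed the threshold when wild type replicate 1 (adjusted p = 0.072), 2 (0.053) or 3 (0.075) was left out, and when YAP5SA replicate 2 (0.072), 3 (0.056) or 4 (0.081) was.

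The remaining type VI chain genes, Col6a4, Col6a5 and Col6a6, encode alternatives to the Col6a3 chain and lie side by side on chromosome 9, with gaps of 29.7 and 27.9 kb. Col6a4 (105990318 to 106096691) was at 15.1, 8.38, 5.40 and 12.1 FPKM in wild type and 4.69, 2.01, 1.49 and 1.02 in YAP5SA. The spread within a genotype was wide, yet the groups did not overlap, and Col6a4 fell 4.43-fold (−2.15 ± 0.44, adjusted p = 0.0077). Without YAP5SA replicate 1, its highest YAP5SA library, the change was −2.77.

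Col6a5 (105856070 to 105960643) was sparse, with 58, 56, 43 and 19 raw fragments in wild type and 28, 14, 9 and 16 in YAP5SA. In FPKM this was 0.991, 0.882, 0.691 and 0.322 against 0.364, 0.209, 0.131 and 0.232. Wild type replicate 4 lay within the YAP5SA range, and the fall of 1.62 ± 0.39 (adjusted p = 0.016) missed the threshold when replicate 2 of wild type (adjusted p = 0.053) or of YAP5SA (0.051) was left out. With limma on log2(FPKM + 1), which understates changes of low genes, the Col6a5 value was −0.47. Col6a6 (105688786 to 105828135) was at 6.79, 3.94, 7.50 and 1.89 FPKM in wild type and 5.29, 2.34, 2.14 and 2.33 in YAP5SA. Its value of −0.73 ± 0.40 did not pass (adjusted p = 0.26) and did not pass in any alternative setting. Over left-out libraries it ran from −1.13 without YAP5SA replicate 1 to −0.48 without wild type replicate 3.

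The type VIII chains, which assemble the open network known from the cornea and from vessel walls, both rose. Col8a1 (chromosome 16, 57624256 to 57754737) was at 11.2, 12.9, 11 and 10.7 FPKM in wild type and 27.5, 23.9, 23.9 and 18.3 in YAP5SA. The lowest YAP5SA library was above the highest wild type library, and Col8a1 rose 2.03-fold (log2 fold change 1.02 ± 0.11, SE, n = 4, adjusted p = 0.00029). Col8a2 (chromosome 4, 126286794 to 126314330) was at 20.8, 24.0, 25.3 and 15.6 FPKM in wild type and 35.0, 37.3, 37.2 and 31.7 in YAP5SA, again without overlap. It rose 1.63-fold (0.71 ± 0.13, adjusted p = 0.0033). Of 6 endothelial markers 1 rose and none fell, with sums of 545 to 653.5 CPM in wild type and 631.5 to 722 in YAP5SA; the part of these cells in the rise was not tested.

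Because both type VIII genes moved together, their promoters were looked at side by side. RefSeq promoters (250 bases before to 50 after a start, build GRCm38.p6) were matched for 27 of the 33 members, 29 promoters in all. The 180 bases before the start follow, on the strand of the gene and 5′ to 3′, with capitals for GGGCGG on either strand, the GC box that Sp1-type factors are known to bind. They span chr16:57754738-57754917 on the minus strand for Col8a1 and chr4:126286614-126286793 on the plus strand for Col8a2.
Col8a1: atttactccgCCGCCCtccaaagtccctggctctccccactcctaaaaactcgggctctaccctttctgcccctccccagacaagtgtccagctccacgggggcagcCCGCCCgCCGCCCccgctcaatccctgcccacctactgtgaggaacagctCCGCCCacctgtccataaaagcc
Col8a2: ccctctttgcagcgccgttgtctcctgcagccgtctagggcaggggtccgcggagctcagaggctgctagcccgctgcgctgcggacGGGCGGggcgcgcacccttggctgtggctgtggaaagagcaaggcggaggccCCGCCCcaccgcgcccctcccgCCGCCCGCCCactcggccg
Each window holds 4 matches, counting those that overlap. The GC box was chosen for display after the values were seen. Of all 32851 RefSeq promoters 35.7% hold at least 1 match and 5.49% hold 4 or more, against 62.1% and 6.9% of the collagen promoters. The letters GGAATG, the core that TEAD factors, the DNA-binding partners of YAP, are known to bind, were found on either strand in 10.3% of the collagen promoters (Col3a1, Col6a2 and Col18a1) and in 14.7% of all promoters. TATAAA, searched on the strand of the gene, was in 17.2% of the collagen promoters and 8.32% of all. A match is a string of letters and not evidence of binding, and these windows say nothing about more distant sites.

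Among the transmembrane collagens, Col23a1 fell most clearly. Col23a1 (chromosome 11, 51289920 to 51584203), whose protein sits at the surface of epithelial and other cells and can be shed, was at 36.2, 35.0, 39.6 and 35.1 FPKM in wild type. In YAP5SA it was at 17.04, 16.4, 19.4 and 18.6 FPKM. The groups were tight and far apart, and Col23a1 fell 2.07-fold (−1.05 ± 0.06, SE, n = 4, adjusted p = 1.1e-05). Epithelial markers summed to 780.5 to 968.5 CPM in wild type and 412 to 582.5 in YAP5SA, and smooth muscle markers fell as given above; their part in the fall of Col23a1 was not tested.

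Col13a1 (chromosome 10, 61838243 to 61979108), a cell-surface collagen known from the neuromuscular junction, was at 14.7, 18.5, 12.1 and 12.9 FPKM in wild type and 9.73, 10.2, 12.1 and 9.32 in YAP5SA. The groups only just did not overlap, with 12.13 FPKM as the lowest wild type value and 12.08 as the highest in YAP5SA. Col13a1 fell by 0.54 ± 0.14 (adjusted p = 0.026), and missed the threshold on leaving out wild type replicate 1 (adjusted p = 0.058) or 2 (0.069), or YAP5SA replicate 1 (0.064), 2 (0.07) or 4 (0.074). Col17a1, a hemidesmosome protein of stratified epithelium, was at 3.35 ± 1.18 FPKM in wild type and 2.39 ± 0.10 in YAP5SA (SD, n = 4; −0.51 ± 0.23, adjusted p = 0.16), and its value ran from −0.26 without wild type replicate 1 (adjusted p = 0.43) to −0.68 without wild type replicate 2 (adjusted p = 0.035). With TMM in 5 density bins the Col17a1 value was −0.31 (adjusted p = 0.37). Col25a1, a membrane collagen involved in motor innervation of muscle, was at 8.05 ± 1.13 and 6.75 ± 1.43 FPKM (−0.27 ± 0.15, adjusted p = 0.26; −0.15 without YAP5SA replicate 1).

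Of the 7 FACITs only Col16a1 was called. Col16a1 (chromosome 4, 130047581 to 130099277), which lies in fibrils and near basement membranes, was at 41.1, 37.0, 41.6 and 35.6 FPKM in wild type and 33.0, 31.0, 35.9 and 32.5 in YAP5SA. YAP5SA replicate 3 lay just above the lowest wild type library, and Col16a1 fell by 0.24 ± 0.06 (adjusted p = 0.028). The call was marginal. Leaving out wild type replicate 1 (adjusted p = 0.077) or 3 (0.081), or YAP5SA replicate 1 (0.055), 2 (0.11) or 4 (0.078), raised the adjusted p above the threshold. Over left-out libraries the change of Col16a1 ran from −0.28 to −0.19.

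Other FACITs did not pass. Col12a1 and Col14a1, large collagens of dense connective tissue that bind type I fibrils, were at 41.4 ± 11.8 and 47.0 ± 4.73 FPKM in wild type and at 54.2 ± 5.84 and 55.0 ± 8.04 in YAP5SA (SD, n = 4). Their changes were 0.39 ± 0.17 (adjusted p = 0.15) and 0.22 ± 0.11 (adjusted p = 0.2). With single libraries left out, Col12a1 ran from 0.28 without wild type replicate 1 to 0.58 without wild type replicate 3 (adjusted p = 0.02), with adjusted p up to 0.31. Col14a1 ran from 0.14 without YAP5SA replicate 3 (adjusted p = 0.46) to 0.31 without YAP5SA replicate 1 (adjusted p = 0.033). Col19a1, known from the differentiation of muscle, was at 1.202 to 2.09 FPKM in wild type and 1.64 to 4.67 in YAP5SA (0.79 ± 0.29, adjusted p = 0.088). Its value moved with single libraries and settings: it passed with 50 density bins (0.92 ± 0.27, adjusted p = 0.039) and without YAP5SA replicate 4 (1.00, adjusted p = 0.03). Without YAP5SA replicate 1, its highest library, the Col19a1 value was 0.46 (adjusted p = 0.2), and the replicate block gave an adjusted p of 0.15. Of 4 skeletal muscle markers 3 rose, with sums of 3.63 to 13.2 CPM in wild type and 13.1 to 50.2 in YAP5SA; their part in the values of Col19a1 was not tested.

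Col22a1, a collagen of tissue junctions such as that of muscle and tendon, was at 2.202 to 3.80 FPKM in wild type and 1.42 to 2.196 in YAP5SA. Its change of −0.63 ± 0.22 had an adjusted p of 0.071, of 0.036 with the replicate number as a block, and of 0.14 with 50 density bins (−0.49). The type IX chains Col9a2 and Col9a3, which coat type II fibrils in cartilage, had log2 differences near 0. Col9a2 was at 31.3 ± 3.35 FPKM in wild type and 31.6 ± 1.48 in YAP5SA (SD, n = 4; 0.01 ± 0.08, adjusted p = 0.97), and Col9a3 at 5.68 ± 2.43 and 6.03 ± 0.76 (0.08 ± 0.25, adjusted p = 0.87). The sign of both changed in some alternative fits.

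The multiplexins, which carry fragments known to limit vessel growth, were not called, though Col15a1 had an unadjusted p of 0.014 (edgeR). Col15a1 was at 24.9 ± 1.95 FPKM in wild type and 22.3 ± 1.82 in YAP5SA (SD, n = 4; −0.20 ± 0.07, adjusted p = 0.068). It lay close to the threshold and passed with 50 density bins (−0.23 ± 0.06, adjusted p = 0.036) and without YAP5SA replicate 3 (adjusted p = 0.049), while limma on log2(FPKM + 1) gave an adjusted p of 0.21. Col18a1 was at 56.7 ± 8.53 and 55.0 ± 4.77 FPKM (−0.06 ± 0.11, adjusted p = 0.76).

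Col28a1 (chromosome 6, 7997808 to 8192617), a collagen known from nerve sheaths and glia, was at 1.51, 0.819, 1.09 and 1.88 FPKM in wild type and 0.675, 0.304, 0.330 and 0.131 in YAP5SA. The counts behind these values were low, with 141 raw fragments in all in wild type and 46 in YAP5SA. The groups did not overlap, and Col28a1 fell 3.62-fold (−1.86 ± 0.43, SE, n = 4, adjusted p = 0.013). Markers of enteric glia and neural crest summed to 197 to 230 CPM in wild type and 84.7 to 137 in YAP5SA; their part in this fall was not tested. Of the joined loci, Col7a1,Mir711 had a log2 difference of −0.27 ± 0.32 (adjusted p = 0.64) and Arfgap1,Col20a1 one of 0.04 ± 0.06 (adjusted p = 0.71).

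Ratios of chains within a library were compared next, since a scale shared by all loci of a library cancels in them. A scale that differs with coverage density, described further on, does not cancel. By the length implied by raw fragments and FPKM, Col11a1 and Col5a1 held 0.226 and 0.454 fragments per base, and Col6a3 and Col6a1 0.259 and 0.497. Col1a1, Col1a2 and Col3a1 were alike, at 0.757, 0.748 and 0.770. The part of density in the ratios was not tested. Of 7 ratios, none passed an exact two-sided permutation test over the 70 divisions of the 8 libraries after Benjamini-Hochberg adjustment. The smallest p this design allows is 0.029. After adjustment over 7 ratios, a ratio at that p could pass only if several others separated as fully. The lack of a pass therefore decides nothing about a single ratio. With same-numbered libraries paired the smallest possible p is 0.12, so no ratio could pass in that form. The ratio Col1a1 to Col1a2 was 0.996 ± 0.008 in wild type and 1.03 ± 0.01 in YAP5SA (SD, n = 4). Col3a1 to Col1a1 was 1.07 ± 0.03 and 0.972 ± 0.013, and Col11a1 to Col5a1 was 0.442 ± 0.073 and 0.549 ± 0.019. In each of these the genotypes did not overlap (exact permutation p = 0.029, adjusted p = 0.067). Within type VI, Col6a3 to Col6a1 was 0.575 ± 0.075 and 0.460 ± 0.050 (exact permutation p = 0.057, adjusted p = 0.1), with overlap. The ratios Col6a1 to Col6a2, Col5a1 to Col5a2 and Col5a1 to Col1a1 had exact permutation p values of 0.2, 0.6 and 0.71.

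**Figure D3:**
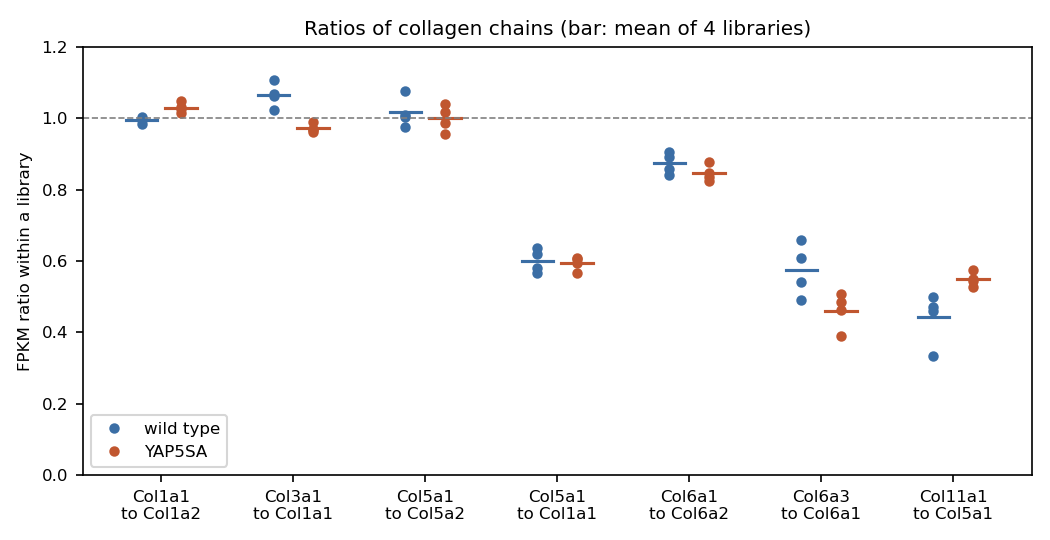
FPKM ratio of 2 collagen chains within each library (vertical axis, from 0) for 7 pairs; points are libraries, bars the mean of 4, and the dashed line marks equal FPKM. Col1a1 and Col1a2 stay close to 1 in both genotypes, and Col3a1 to Col1a1 lies at 1.02 or more in every wild type library and at 0.99 or less in every YAP5SA library.

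In these libraries, fragments scaled with depth differently at dense and sparse loci. Density was taken as raw fragments per base, and the median of the collagens was 0.126 per exonic base, against 0.0787 for all tested loci. With loci in 5 equal bins of density, 15 of the 32 collagens fell in the densest, 3 in the next, 1 in the middle, 7 in the next and 6 in the sparsest. Within a genotype, a slope of 1 means that fragments rise in proportion to library depth. The median slope was 1.87 in the sparsest bin, 1.07 in the middle and 0.55 in the densest. These slopes rest on 4 libraries per genotype. YAP5SA replicate 1 held 8353242 fragments in loci with a name, against 7152526 to 7540150 in the other YAP5SA libraries. Depth and the make-up of that library therefore cannot be told apart. The share of all loci called fell along with the slope, from 23.4% in the sparsest bin to 13.4% in the densest. Of the 15 collagens in the densest bin 7 were called, and of the 6 in the sparsest 2. The bins depend on the length used. By the length implied by raw fragments and FPKM, the densest bin held 10 collagens, 3 of them called (10.2% of all loci there). The sparsest then held 8, with 2 called (24.5% of all loci there).

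The main fibre chains lie at the far end of that range. By the length implied by raw fragments and FPKM, Col3a1, Col1a1 and Col1a2 were denser than 99.0%, 98.9% and 98.8% of the tested loci, Col6a2 and Col6a1 denser than 96.8% and 94.8%, and Col5a1 and Col5a2 denser than 93.3% and 93.1%. In the densest of 50 bins the slope was 0.31, taken there from the TMM-scaled fragment totals of the bin and of the library. Where fragments rise less than in proportion to depth, a difference between the genotypes could be compressed too. Scaling within bins shifts the groups and does not undo that. The size of such compression was not tested. Raw fragments in YAP5SA relative to wild type were 1.10 for Col1a1, 1.06 for Col1a2 and 1.00 for Col3a1, all below the depth ratio of 1.17. Scaled within those 50 bins, a setting added after the data were seen, the log2 difference was 0.01 ± 0.05 for Col1a1, −0.04 ± 0.05 for Col1a2 and −0.12 ± 0.04 for Col3a1, so small differences of these chains hang on the scaling.

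The larger changes kept their calls there. With 50 bins Col24a1 changed by 1.59, Col8a1 by 0.99, Col8a2 by 0.68, Col23a1 by −1.06, Col6a3 by −0.66, Col27a1 by −0.37 and Col6a4 by −2.18, each past the threshold. In that fit 1423 of all loci rose and 1423 fell, and of the collagens 4 rose and 10 fell (median −0.12). Over 20 alternative settings, 9 of the 14 called collagens kept their call in each: Col24a1, Col8a1, Col8a2, Col23a1, Col27a1, Col6a1, Col6a3, Col6a4 and Col28a1.

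**Figure D4:**
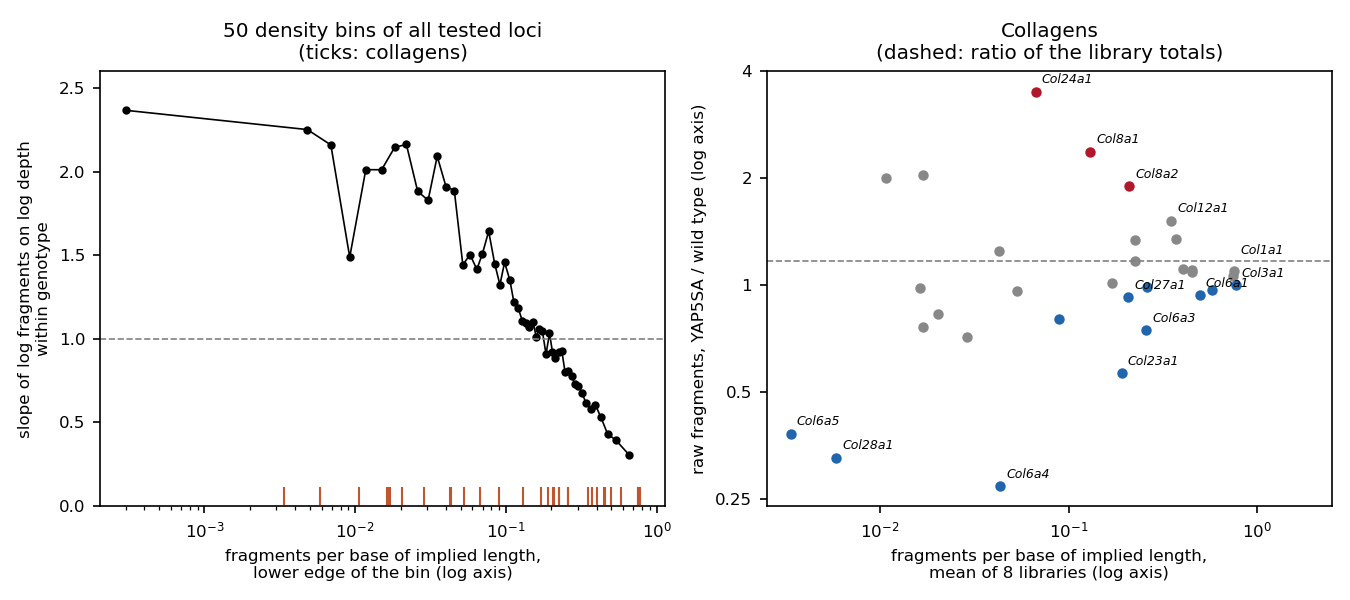
Left: slope within a genotype for 50 bins of all tested loci, against fragments per base at the lower edge of the bin (log axis). Ticks mark the 32 collagens. The slope is that of the log TMM-scaled fragment total of a bin on the log TMM-scaled library size. It runs from 2.37 in the sparsest bin to 0.31 in the densest. Right: ratio of raw fragments, YAP5SA to wild type, of each collagen (log axis) against its density; red and blue are collagens called higher and lower, grey those not called, and the dashed line is the depth ratio of 1.17, with Col3a1 at 1.00 and Col24a1 at 3.51.

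The genes that modify, cut, cross-link and bind collagen were counted from 3 lists. Of 40 tested genes 9 rose and 3 fell, or 30% called, against 18.9% of all loci. Enzymes and chaperones of the secretory pathway came first: of 22 loci 4 rose and 1 fell (median 0.07). P4ha1, a prolyl hydroxylase subunit that stabilises the helix, rose from 152.5 ± 2.76 to 178.0 ± 12.4 CPM (SD, n = 4; 0.22 ± 0.05, adjusted p = 0.016). Lepre1, a prolyl hydroxylase of type I chains, rose by 0.27 ± 0.07 (adjusted p = 0.018), and Plod2, which hydroxylates lysines for cross-links, by 0.29 ± 0.08 (adjusted p = 0.031). Mia2, which with Ctage5 names parts of 1 cargo receptor gene in current annotation, fell by 1.37 ± 0.25 (adjusted p = 0.0036), while the Ctage5 locus had a log2 difference of −0.10 ± 0.05 (adjusted p = 0.16). Plod3 was not analysed here.

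Of 11 genes for propeptide cleavage and cross-linking 5 rose and 1 fell (median 0.29). Pcolce2 and Pcolce, enhancers of procollagen C-proteinase, rose from 0.932 ± 0.485 to 7.24 ± 2.73 CPM (2.94 ± 0.41, adjusted p = 0.00089) and from 75.1 ± 7.90 to 104.4 ± 5.91 CPM (0.48 ± 0.08, adjusted p = 0.0018). The lysyl oxidase gene Loxl1, whose product is best known for cross-linking elastin, rose by 0.51 ± 0.09 (adjusted p = 0.004), and the N-proteinase gene Adamts14 by 1.00 ± 0.21 (adjusted p = 0.0083). The C-proteinase gene Bmp1 itself fell by 0.20 ± 0.04 (adjusted p = 0.0091), Adamts2 rose by 0.40 ± 0.11 (adjusted p = 0.026), and the cross-linking enzyme gene Lox had a log2 difference of 0.12 ± 0.16 (adjusted p = 0.67).

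Of 7 receptor and uptake genes only Itga11, the subunit of a fibrillar collagen integrin on fibroblasts, was called. It fell from 15.4 ± 3.35 to 9.49 ± 1.56 CPM (SD, n = 4; −0.70 ± 0.20, adjusted p = 0.031), and with scaling in 5 density bins none of the 7 was called. Log2 differences that did not pass were 0.23 ± 0.09 for the endocytic receptor gene Mrc2 (adjusted p = 0.13), −0.11 ± 0.05 for the common integrin subunit gene Itgb1 (adjusted p = 0.14) and, for the collagen-binding kinase gene Ddr2, 0.12 ± 0.06 (adjusted p = 0.22).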

How the data were processed

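Messenger RNA of 8 stomach libraries was profiled. Per the labels' protocols, RNA of frozen tissue was isolated in Trizol and sequenced from TruSeq libraries. The submitters' processing notes name the build mm10, Cuffdiff, Cufflinks 2.2.1 and TopHat2 2.0.9. Whether strand was used is not given in the sources used, and antisense overlap cannot be told apart. Per the file headers, the authors deposited raw fragments per locus and library, which are estimated counts (10.6% to 11.0% of values were not whole), and FPKM scaled between libraries. The table numbers replicates from 0 to 3, read here as 1 to 4 of the labels. The 3582 loci without a name (1.85% to 1.97% of fragments) were left out.

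Fragments were rounded to whole numbers and tested with edgeR 4.0.16 in R 4.3.3 (quasi-likelihood, robust, TMM factors, filterByExpr with 10 and 15 fragments as its minimum and minimum total), with genotype as the only term and Benjamini-Hochberg adjustment over 14574 loci. An adjusted p of a gene is from this two-sided test unless its sentence names another setting, and a log2 fold change is YAP5SA minus wild type. FPKM and CPM values are mean ± SD of 4 libraries. The labels do not say whether library numbers pair the samples across genotypes. In the data, deviations of same-numbered libraries correlated at 0.145 to 0.227, and each wild type library correlated best with its own number. The main test leaves this out, while the replicate block among the alternatives takes it in. Alternatives were RLE and upper-quartile factors, TMM within 5 density bins, no filter, a mean CPM of at least 2, DESeq2 1.42.0, limma-voom and limma 3.58.1 on log2(FPKM + 1) and log2(FPKM + 0.1), the replicate block and each library left out; 2 further density settings (5 bins and 50 bins by implied length) were added after seeing the data. The scripts were tested on simulated data.

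The members, gene lists and classes were chosen with earlier results of these data known. All members were named, with library values for the main chains and those called, and of each pathway list the 4 genes with the smallest p; Bmp1, Adamts2, Lox and Ctage5 were added after their values were seen. Coordinates are those of the deposited loci on mm10, counted from 1. Glycine runs were read from GENCODE M21, promoters from RefSeq.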

Additional observations from a re-analysis of the deposited data

Results flagged for a closer look

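In 64 groups of 4 libraries (32 collagens in each of 2 genotypes), a single library far from the others was found in 2 groups, and chance alone flags about 1 group in 20. Col9a2 in YAP5SA replicate 1 was at 76.4 CPM, against 83.5 to 84.7 CPM in the other YAP5SA libraries. Col6a6 in YAP5SA replicate 1 was at 40.1 CPM, against 16.5 to 18.0 CPM in the others.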

How the results depend on the processing

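Of the 14 called collagens 9 kept their direction and call in all 20 alternative settings; Col3a1, Col6a2, Col6a5, Col13a1 and Col16a1 lost theirs in some, and 6 uncalled collagens gained one in some. Left-out libraries gave 7 to 11 collagens called lower (7 without YAP5SA replicate 2) and 3 to 4 higher. Over all loci, too, the fewest were called lower without YAP5SA replicate 2 among these fits. By class, type VI gave 3 to 5 lower and transmembrane collagens 1 to 2 lower. FACITs gave 0 to 1 higher and 0 to 1 lower, and multiplexins 0 to 1 lower. Scaling within 50 density bins gave 1 fibrillar chain lower; both added density settings and DESeq2 gave 1 FACIT higher; DESeq2 gave 2 FACITs lower; and all 3 density settings gave 1 multiplexin lower. With the replicate block, 2 FACITs were lower, Col22a1 being the 1 collagen whose call changed. By implied length the median density was 0.199 fragments per base.

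Signs turned only for changes near 0: over left-out libraries Col18a1 ran from −0.16 to 0.02 (0.00 without YAP5SA replicate 1), Col9a3 from −0.05 to 0.43 (−0.03 without wild type replicate 4) and Col9a2 from −0.06 to 0.06. Col1a1 turned with 50 density bins (0.01). Col9a2 turned with upper-quartile factors (−0.00), 5 bins by implied length (−0.01) and 50 bins (−0.02). The log2 difference of the ratio Col5a1 to Col5a2 ran from −0.04 to 0.00 and that of Col5a1 to Col1a1 from −0.04 to 0.01 (0.00 without YAP5SA replicate 2) over left-out libraries. The cause was not tested. With 1 added to FPKM, the change of Col28a1 was −0.77 and that of Col6a5 −0.47. At 46 fragments in YAP5SA for Col28a1 and 67 for Col6a5, counting error limits the precision of those falls.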
